A study of Mus musculus with 18 samples.

Results

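Enteroendocrine cells are the hormone-secreting cells of the gut epithelium, and 10 of their genes are described here in ileum cells of 18 mice. They are the hormone genes Gcg, Pyy, Cck, Gip, Nts and Sct, the serotonin enzyme gene Tph1, the granule genes Chga and Chgb, and the transcription factor gene Neurod1. The genes were taken by name. Every non-control probe of the arrays that carries one of these gene names was read, which gave 13 probes, and the brightest probe stood for its gene. They are 10 of the 37074 gene names on the array, and all 10 were among the 21542 gene names that were bright enough to be tested.

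Of the Pgc1α fl/fl mice 6 ate chow and 6 ate WD, and a further 6 mice were iPgc1α-/- and ate WD, with 1 Agilent one-colour array for each mouse. All were male mice on the C57BL6/J background. Controls and knockouts carried the same floxed alleles of Pgc1α, a transcriptional coactivator of mitochondrial genes, and in iPgc1α-/- mice these alleles are cut by a Cre recombinase under the Vil1 promoter, which is active in the gut epithelium. In WD (named HFD in the sample labels) fat supplied 42% of the kcal and cholesterol made up 0.2%. Mice started on their diet at 8 weeks of age and ate it for 8 weeks. Mice were fasted and killed at zeitgeber time 3. Cells were shaken off the opened ileum in a chelating buffer, so each array holds the RNA of all cells that came off. In such bulk RNA, fewer enteroendocrine cells and less RNA per cell cannot be told apart. The fourth combination, iPgc1α-/- with chow, is not analysed here.

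Enteroendocrine cells are scattered singly among the absorptive cells of the villus and crypt. They sense nutrients in the lumen, store peptide hormones in dense granules built with chromogranins, and release them at their base toward blood vessels and nerves. L cells of the distal gut make Gcg, which encodes the precursor of the glucagon-like peptides, together with Pyy, a brake on gut movement and appetite. I cells make Cck, K cells make Gip, N cells make Nts, S cells make Sct, and enterochromaffin cells make serotonin through Tph1. Single cells often make several of these hormones.

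Signals are given as log2 normalized signal, and a difference of 1 on this scale is a doubling. A gene was called when its Benjamini-Hochberg adjusted p from limma, over 32726 probes, was 0.05 or lower and its fold change was above 1.5. Precision is limited by how many arrays there were and by the spread between mice. On the same arrays, a difference had a median standard error of 0.19 for the 10 genes against 0.10 for all probes tested. At their brightest probe, all 10 genes were well above the local background on 6 of 6 arrays in every group. Tph1 and Neurod1 were dim, with raw signals of 53.5 to 166 and 47 to 144, where the median signal of an array was 39 to 61. Background was not subtracted from the signals used here.

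Before any comparison, 2 arrays stood apart. For each array, the deviation of a gene from its group mean was averaged over the 10 genes. This mean was -0.77 in Pgc1α fl/fl WD mouse 6 and -0.54 in Pgc1α fl/fl chow mouse 4, and in both all 10 genes lay below the group mean. The other 16 arrays lay between -0.05 and 0.40. Among these, Pgc1α fl/fl WD mice 1 (0.36) and 4 (0.40) had all 10 genes above a group mean that includes the low mouse 6. Both low arrays were on slide 3, which held 2 arrays of each group as did the other 2 slides. Values that moved by over 1.5 times or changed sign or call without both arrays are given with and without them, here or under the dependence on processing.

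Ppargc1a, which encodes Pgc1α, was read as a check of the genotype labels. At its brightest probe, Pgc1α fl/fl mice had a mean log2 signal of 10.94 with chow and 11.38 with WD, against 11.67 in iPgc1α-/- mice, and 5 of 6 iPgc1α-/- mice lay above every Pgc1α fl/fl mouse on WD. Arrays with the label iPgc1α-/- did not have less signal at these probes, so directions by genotype refer to the labels. Its 2 probes start at bases 2473 and 2964 of the transcript. Whether they lie inside the deleted exons was not determined here, and a probe outside the deleted part checks nothing. The study itself reports the deletion from RT-qPCR of the intestinal tracts. The ileal bile acid genes Fabp6 (16.77 to 17.14 as group means) and Slc10a2 (11.96 to 13.08) were bright in all groups, as was the whole enterocyte list, with 14 of 14 markers tested. Immune and goblet cell markers moved with diet. In Pgc1α fl/fl mice, 7 of 7 tested T cell markers, 7 of 8 B and plasma cell markers and 6 of 8 goblet markers were called lower on WD, and the summed signal of the T cell list ran from 13181 to 46961 on chow and from 5546 to 9880 on WD. The summed goblet signal ran from 430270 to 570235 and from 188182 to 463409. Of the other lists, Alpi and Apoa4 of the enterocyte list were called higher and Slc10a2 lower, as were Mmp7 and Pla2g2a (2 of 7 Paneth markers), Trpm5 (1 of 6 tuft markers), Ccnb1 and Top2a (2 of 8 stem and cycling markers) and Itgax (1 of 6 myeloid markers). Of 6 smooth muscle and fibroblast markers and 3 endothelial markers, 0 were called by limma. No marker of any list differed past the thresholds when the genotypes were compared on WD. The part of these cells in the results below was not tested.

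The comparison of WD with chow in Pgc1α fl/fl mice asked which enteroendocrine genes move with a fat-rich diet. Chga fell and Nts rose, and none of the other 8 genes was called. These 2 called genes stand against 8.43% of all genes tested that were called either way, with 3.22% called higher and 5.20% called lower. The median log2 difference was 0.04 over the 10 genes and 0.0031 over all genes, with 5 of the 10 higher on WD and 5 lower.

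Chga encodes chromogranin A, the acidic protein around which hormone granules condense. The lowest, median and highest log2 signals were 12.31, 12.56 and 13.02 on chow and 11.32, 11.85 and 12.04 on WD. Every mouse on WD lay below every mouse on chow, a separation that 10.4% of all genes tested showed between these groups and that no other of the 10 genes did. The mean fell from 12.58 ± 0.25 to 11.78 ± 0.27 (SD, n = 6 mice each), to 57.2% of the chow level. The log2 difference was -0.80 (standard error 0.13, 95% interval -1.07 to -0.54, adjusted p = 0.000108 by limma). A two-sided exact permutation test gave p = 0.002165, the smallest value that 6 mice against 6 allow. Exact p-values here are unadjusted, from 30 such tests, and all p-values measure the spread between mice. Within the slides the difference was -0.82 on slide 1, -0.44 on slide 2 and -1.15 on slide 3, and without the 2 low arrays it was -0.75.

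Nts encodes neurotensin, a peptide of the distal small intestine that is released after fat and aids its uptake. On chow the lowest, median and highest log2 signals were 9.78, 10.48 and 11.13, and on WD they were 10.01, 11.72 and 12.16. All mice on WD but the low mouse 6 lay above the highest mouse on chow. The mean rose from 10.55 ± 0.52 to 11.53 ± 0.79 (SD, n = 6 mice each), 1.98-fold. The log2 difference was 0.98 (standard error 0.28, adjusted p = 0.0164 by limma, exact permutation p = 0.0368). It was 1.28, 1.06 and 0.61 within slides 1, 2 and 3, and 1.14 without the 2 low arrays. Over all other settings and arrays left out, the adjusted p of Nts lay between 0.000142 and 0.0481.

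Pyy, the peptide made beside Gcg in L cells, was the next highest on WD. Its lowest, median and highest log2 signals were 9.19, 9.37 and 10.02 on chow and 8.99, 10.18 and 10.34 on WD. In 4 of 6 mice on WD it lay above the highest mouse on chow, while the low mouse 6 lay below the lowest. The log2 difference of 0.53 (standard error 0.20, 95% interval 0.11 to 0.95) was not called (adjusted p = 0.0611 by limma, exact permutation p = 0.0649). This call turned on single arrays. Pyy was called without Pgc1α fl/fl WD mouse 6 (0.74, adjusted p = 0.00221), without Pgc1α fl/fl chow mouse 2 (0.66, adjusted p = 0.0206) and without both low arrays (0.70, adjusted p = 0.00643), and with other arrays or settings its adjusted p went up to 0.127. Within slides it differed by 0.67, 0.94 and -0.0045.

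The windows before the start sites of Chga, Nts and Pyy are shown with that of Chgb, the granule gene that was not called in any comparison, so that the 3 genes called in at least 1 comparison can be set beside it. Each is the 250 bases before the start site in RefSeq on GRCm38.p6, read 5′ to 3′ on the strand of the gene. Capitals mark matches to TGACNTNA on either strand (TNANGTCA in reverse). This is a loosened form of TGACGTCA, the site bound by factors that answer to cyclic AMP, and a match to it need not be such a site. Among the windows shown, only that of Chgb holds TGACGTCA in full. The motif was chosen after these windows had been seen.
Chga, chr12:102554691-102554940, plus strand: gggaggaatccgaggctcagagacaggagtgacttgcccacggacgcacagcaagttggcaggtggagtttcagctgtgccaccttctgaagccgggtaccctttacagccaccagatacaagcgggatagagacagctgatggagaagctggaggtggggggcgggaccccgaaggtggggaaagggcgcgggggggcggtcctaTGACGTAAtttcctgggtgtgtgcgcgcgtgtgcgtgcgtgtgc
Nts, chr10:102490419-102490668, minus strand: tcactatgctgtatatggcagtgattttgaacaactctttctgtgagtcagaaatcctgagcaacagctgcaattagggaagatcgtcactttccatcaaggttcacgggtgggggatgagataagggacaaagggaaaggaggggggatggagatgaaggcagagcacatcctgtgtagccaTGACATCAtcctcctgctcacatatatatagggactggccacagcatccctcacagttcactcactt
Pyy, chr11:102107833-102108082, minus strand: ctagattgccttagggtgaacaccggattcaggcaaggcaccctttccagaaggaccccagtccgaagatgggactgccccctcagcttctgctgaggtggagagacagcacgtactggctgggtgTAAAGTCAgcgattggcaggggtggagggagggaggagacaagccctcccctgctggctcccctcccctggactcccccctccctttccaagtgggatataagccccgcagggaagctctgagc
Chgb, chr2:132781392-132781641, plus strand: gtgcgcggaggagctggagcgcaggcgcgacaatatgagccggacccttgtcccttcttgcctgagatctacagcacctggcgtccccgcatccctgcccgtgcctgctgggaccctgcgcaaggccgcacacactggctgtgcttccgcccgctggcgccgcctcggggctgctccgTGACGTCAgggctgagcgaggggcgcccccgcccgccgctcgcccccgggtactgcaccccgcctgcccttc
Matches start 44 bases before the start site in Chga, 67 in Nts, 124 in Pyy and 72 in Chgb. The motif stands before 4 of the 10 genes, counted over 12 windows, of which the 2 of Pyy overlap and hold the same site. Of all 32851 windows 14.1% hold it, and since it was picked with these windows in view, nothing is read from the count. It stands before Chga, Nts and Pyy, and before Chgb, which was not called. The windows of Gcg, Cck, Sct, Gip, Tph1 and Neurod1, also not called, hold no match. Nothing is read from this split either.

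The first 30 of 60 bases of the probes for the 3 genes above are given with the pair of Gcg probes, whose differences between the diets had opposite signs and were not called, at the mm9 positions of the array files.
Chga, chr12:103803083-103803142: acaggcagctttctagaagtttctcttcca
Nts, chr10:101944967-101945026: agctgtatgagaataaacccagaaggccct
Pyy, chr11:101968311-101968370: gtatggaaaaagagatgtccccgcagctct
Gcg, brightest probe, chr2:62312685-62312744: gtcacaacacctggattatactaacagaag
Gcg, dimmer probe, chr2:62318657-62318716: gcacgtaatattaacttagtcaaaattgag
The plot of signals by mouse shows where the values of the 10 genes fall in each group.

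**Figure D1:**
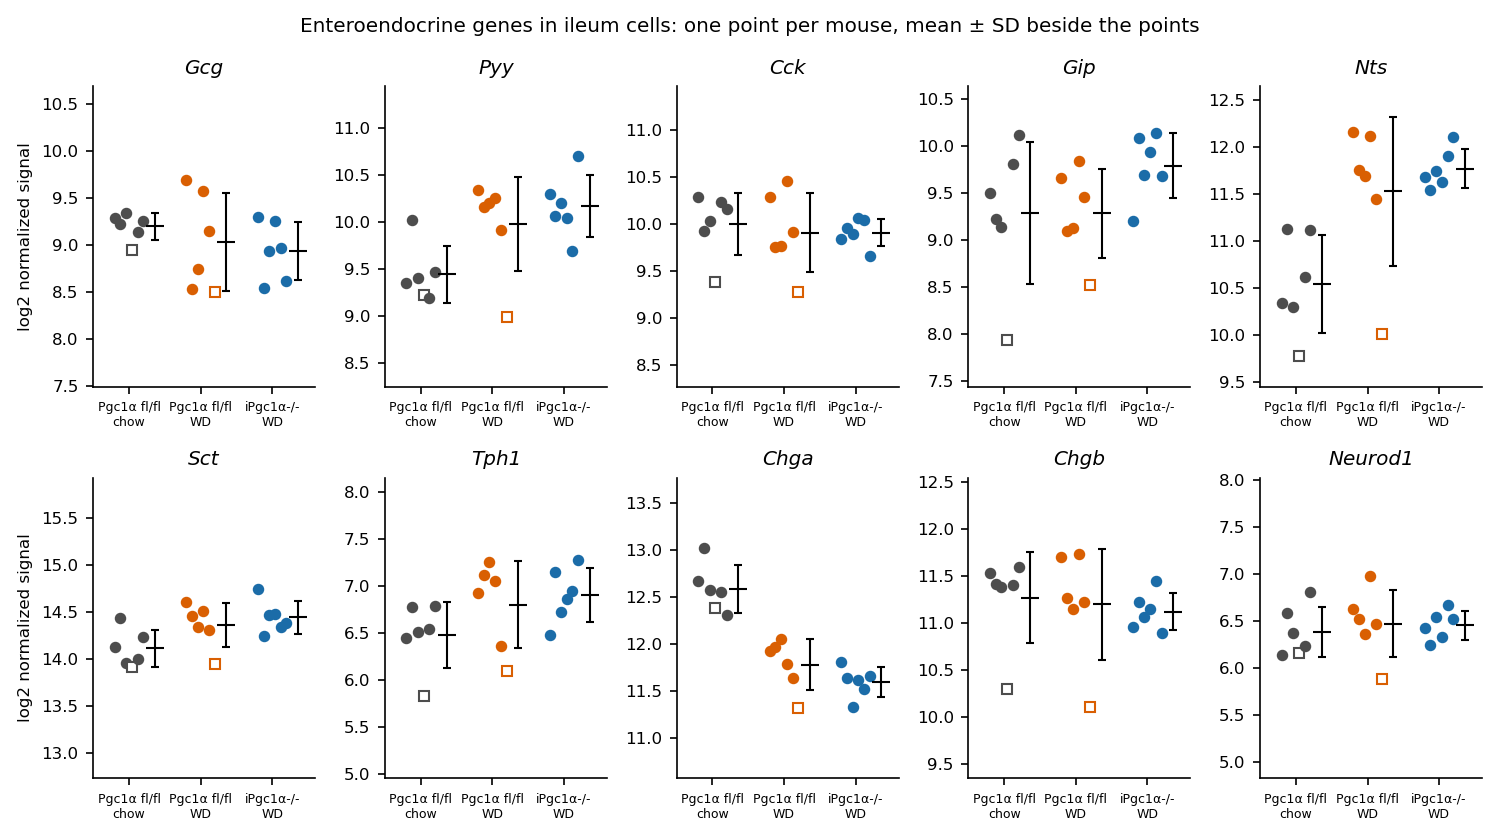
Log2 normalized signal (y axis, the same span in each panel) of the 10 genes in Pgc1α fl/fl mice fed chow or WD and in iPgc1α-/- mice fed WD, with 1 point per mouse and the mean ± SD (n = 6) beside the points. Open squares are Pgc1α fl/fl chow mouse 4 and Pgc1α fl/fl WD mouse 6, the 2 low arrays, and Chga is the gene in which all mice on WD lie below all Pgc1α fl/fl mice on chow.

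Among the other hormones, Sct (secretin, which drives bicarbonate release from the pancreas) had lowest, median and highest log2 signals of 13.92, 14.07 and 14.44 on chow and 13.95, 14.40 and 14.61 on WD. The groups overlapped, with 3 of 6 mice on WD above the highest on chow. The difference of 0.25 (95% interval 0.01 to 0.48) was not called (adjusted p = 0.121 by limma). Gcg ran from 8.94 to 9.35 on chow and from 8.50 to 9.69 on WD, and on WD 2 of 6 mice lay above the chow range and 3 of 6 below it. Its difference was -0.17 (95% interval -0.56 to 0.22), while the dimmer probe gave 0.13 (adjusted p = 0.325 by limma). The sign of the diet difference thus differs between the Gcg probes, and neither was called. The dimmer probe had group means of 5.76 to 5.89, against 8.94 to 9.20 at the brightest, so the 2 readings do not weigh alike. Cck, which empties the gallbladder and slows the stomach, ran from 9.38 to 10.28 on chow and from 9.27 to 10.45 on WD (difference -0.09, 95% interval -0.44 to 0.26). Gip, an incretin of the upper small intestine, ran from 7.93 to 10.11 on chow and from 8.52 to 9.84 on WD. Its difference was -0.0018 (95% interval -0.59 to 0.58), and its probe crosses an intron on chromosome 11.

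Tph1, the first enzyme of serotonin synthesis in the gut, ran from 5.83 to 6.79 on chow and from 6.10 to 7.25 on WD. In 4 of 6 mice on WD it lay above all mice on chow, and the difference of 0.32 (95% interval -0.08 to 0.72) was not called (adjusted p = 0.248 by limma). Another Tph1 probe gave 0.21, and the remaining one was too dim to be tested. Chgb, the sister granin of Chga, ran from 10.30 to 11.60 on chow and from 10.11 to 11.74 on WD. Its difference of -0.07 (95% interval -0.56 to 0.41) stands beside -0.80 for Chga, and the difference between these 2 differences was not tested. Neurod1, which carries endocrine progenitors into their final form, ran from 6.14 to 6.82 on chow and from 5.88 to 6.98 on WD (difference 0.09, 95% interval -0.22 to 0.39). For 5 of the 10 genes, the dim Neurod1 among them, the 95% interval lay inside a fold change of 1.5 in either direction. An unadjusted p below 0.05 by limma was found for 4 of the 10, against 8048 of all 21542 genes tested. Without the 2 low arrays, Neurod1 differed by 0.18, Gip by -0.11, Gcg by -0.10 and Chgb by -0.04, and none of these 4 was called.

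Markers of cells that could share these transcripts were read beside them. Chromogranins and neuropeptides are also made by enteric neurons, and 0 of 6 tested neuron and glia markers were called in any of the 3 comparisons, while the markers Prph, Vip and Nos1 did not pass the filter on dim probes. The summed signal of that list was 347 to 390 on chow, 372 to 688 in Pgc1α fl/fl mice given WD and 368 to 457 in iPgc1α-/- mice. Mouse mast cells also make serotonin, and their markers Cpa3, Tpsab1 and Ms4a2 did not pass the filter. Of 5 tested mast cell markers, 0 were called between WD and chow in Pgc1α fl/fl mice, and their sums were 702 to 1151 and 463 to 1358.

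The comparison of iPgc1α-/- with Pgc1α fl/fl mice on WD asked whether loss of Pgc1α in the epithelium moves these genes. None of the 10 was called by limma, none had an unadjusted p below 0.05 and none had groups without overlap. In this comparison 0.135% of all genes tested were called and 0.966% did not overlap, while 2002 genes had an unadjusted p below 0.05. The median log2 difference was 0.04 over the 10 genes and 0.0059 over all genes.

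The largest difference was that of Gip. Its lowest, median and highest log2 signals were 8.52, 9.29 and 9.84 in Pgc1α fl/fl mice and 9.20, 9.81 and 10.14 in iPgc1α-/- mice. In 3 of 6 iPgc1α-/- mice it lay above every Pgc1α fl/fl mouse, and the groups overlapped. The difference of 0.51 (standard error 0.28, 95% interval -0.08 to 1.09) was not called (adjusted p = 0.574 by limma, exact permutation p = 0.0584). It was 0.84, 0.42 and 0.27 within slides 1, 2 and 3, and 0.35 without the 2 low arrays.

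The 3 genes with the largest differences between the diets overlapped between the genotypes on WD. Nts ran from 11.55 to 12.11 in iPgc1α-/- mice, inside the range of 10.01 to 12.16 in Pgc1α fl/fl mice (difference 0.24, 95% interval -0.35 to 0.83). Pyy ran from 9.69 to 10.70, with 1 mouse above all Pgc1α fl/fl mice on WD (difference 0.19, 95% interval -0.23 to 0.61). Chga ran from 11.32 to 11.81, inside the range of 11.32 to 12.04 (difference -0.19, 95% interval -0.45 to 0.08). Without the low mouse 6, the differences of Nts and Pyy were -0.07 and -0.01.

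For the remaining genes the differences were 0.10 for Tph1, 0.08 for Sct, -0.01 for Neurod1, -0.08 for Chgb and -0.09 for Gcg, with Cck at equal means of 9.91. The other Tph1 probe tested gave -0.07, of opposite sign, and the dimmer Gcg probe gave -0.0036. Without the 2 low arrays, Chgb differed by -0.30, Gcg by -0.21, Neurod1 by -0.14, Cck by -0.13 and Chga by -0.28, and none was called by limma. The 95% intervals of 7 of the 10 genes lay inside a fold change of 1.5, and those of Gip, Nts and Pyy reached beyond it. The intervals of these 3 therefore include a change of that size. On WD, SDs among iPgc1α-/- mice were lower than those among Pgc1α fl/fl mice for several genes, for example an SD of 0.21 against 0.79 for Nts, 0.20 against 0.59 for Chgb and 0.15 against 0.42 for Cck. This difference in spread was not tested, and the low mouse 6 is one of the Pgc1α fl/fl mice.

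**Figure D2:**
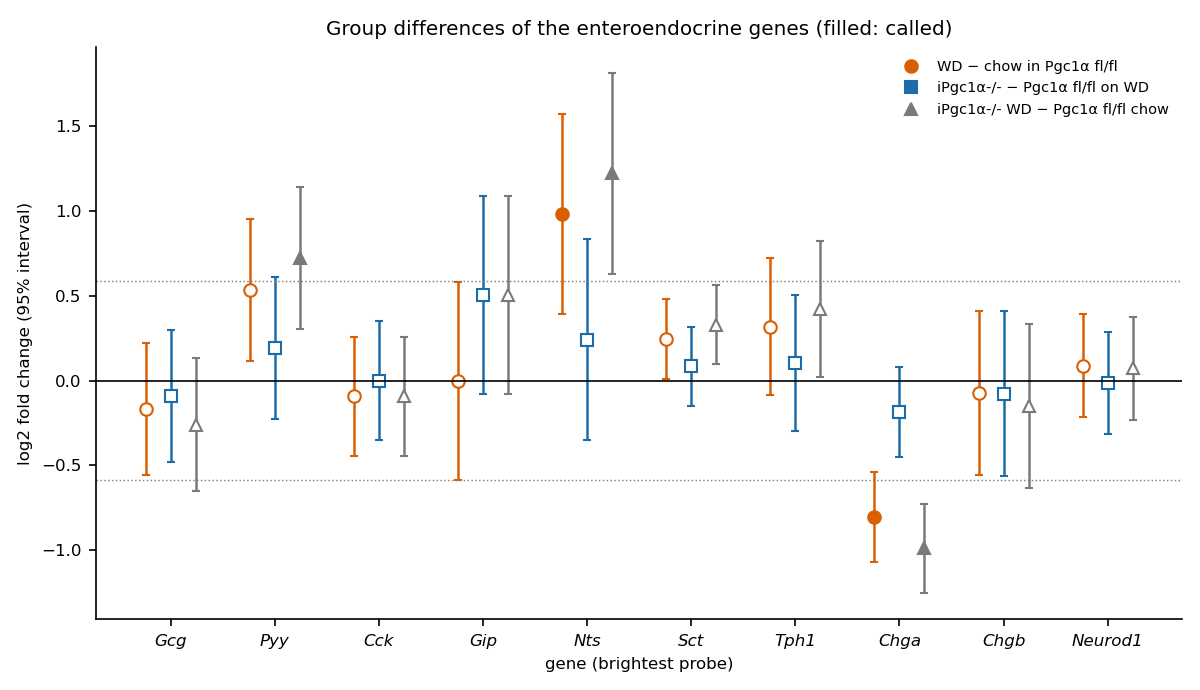
Log2 fold change (y axis, points) with its 95% interval (bars) for each gene (x axis) in the 3 comparisons, where filled symbols are called genes and dotted lines mark a fold change of 1.5. Chga lies at -0.80 and Nts at 0.98 between the diets in Pgc1α fl/fl mice, while all symbols of the genotype comparison on WD are open.

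In the third comparison, of iPgc1α-/- mice on WD with Pgc1α fl/fl mice on chow, diet and genotype differ together, and it shares its arrays with the other comparisons. Chga was lower and Nts and Pyy were higher, 3 of 10 genes against 11.8% of all genes tested. Chga stood at 11.59 ± 0.16 against 12.58 ± 0.25 (SD, n = 6 mice each; difference -0.99, standard error 0.13, adjusted p = 9.1e-06 by limma). Nts stood at 11.77 ± 0.21 against 10.55 ± 0.52 (difference 1.22, standard error 0.28, adjusted p = 0.00246 by limma). In these 2 genes no mouse of one group reached the range of the other, as in 16.2% of all genes tested.

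Pyy stood at 10.17 ± 0.33 against 9.44 ± 0.30 in that comparison, with 5 of 6 iPgc1α-/- mice above every Pgc1α fl/fl mouse on chow (difference 0.72, standard error 0.20, adjusted p = 0.00866 by limma). Sct passed the adjusted p (0.0281 by limma) at a difference of 0.33, below the fold change of 1.5. Tph1 differed by 0.42 (adjusted p = 0.0942 by limma), Gip by 0.50, Neurod1 by 0.07, Cck by -0.09, Chgb by -0.15 and Gcg by -0.26. The dimmer Gcg probe gave 0.13, of opposite sign, and the other Tph1 probe tested gave 0.14, and neither was called. Without the 2 low arrays, Chgb differed by -0.34 and passed the adjusted p (0.0355 by limma) below the fold change of 1.5, Gip differed by 0.24, Cck by -0.21 and Neurod1 by 0.03. In order of mean signal, Chga was highest in Pgc1α fl/fl mice on chow and lower in both groups on WD, whose values overlapped. Nts and Pyy were lowest in Pgc1α fl/fl mice on chow, and again the values of the groups on WD overlapped. Of the mast cell markers, Mcpt1 and Mcpt4 were called lower in this comparison, with sums of 399 to 511 against 702 to 1151, and their part in the value of Tph1 was not tested.

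Other genes with roles in enteroendocrine cells were read from lists sorted by role. Which cells gave their signal in this bulk RNA was not tested. Of 8 other gut hormone genes, 4 were bright enough to be tested, and between WD and chow in Pgc1α fl/fl mice 1 was called higher and 1 lower. Iapp, which encodes amylin, rose by 0.64 (5.40 to 6.04, adjusted p = 0.00701 by limma). Its signal was dim, with group means below those of Tph1 and Neurod1, and background was not subtracted. Tac1, the gene of substance P, which enterochromaffin cells also make, fell from 8.17 to 7.56 (difference -0.61, adjusted p = 0.0379). Ghrl, the gene of ghrelin, differed by 0.55 and Sst, the gene of somatostatin, by 0.51, and neither was called. Ghrl was called in the third comparison (0.90, adjusted p = 7.5e-05 by limma). Chga and Tac1 were thus lower on WD, while the median of the 4 hormones was higher by 0.53.

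The granule and prohormone processing list had 18 of 22 genes tested, of which 2 were called higher on WD in Pgc1α fl/fl mice, 1 lower and 15 neither. Pcsk1, the convertase that cuts many prohormones, fell from 8.22 to 7.39 (difference -0.83, adjusted p = 0.000214 by limma). Syp, a vesicle membrane protein, rose from 10.79 to 11.90 (1.11, adjusted p = 0.00074). Ddc, which makes serotonin from the product of Tph1 and is also present in absorptive cells, rose from 12.80 to 13.58 (0.77, adjusted p = 8.2e-05). The median over the list was 0.11. In the third comparison Cplx2, a regulator of vesicle release, was also called lower (-0.64).

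Of 20 transcription factors of the enteroendocrine lineage, all tested, 1 was called. Pax6, which the hormone genes of L and K cells need, rose on WD from 6.86 to 7.97 (1.12, adjusted p = 8.3e-05 by limma). The median over the list was 0.16, and Neurog3, the factor that starts the lineage, differed by 0.17 (adjusted p = 0.206). Neurog3 was dim, at 5.14 on chow and 5.30 on WD. Among nutrient sensors, 9 of 18 were tested. Ffar4, a receptor for long fatty acids, fell from 7.13 to 6.53 (-0.60, adjusted p = 0.0183), and Ffar2, a receptor for short ones, was called lower in the third comparison (-0.64). Of 18 hormone receptors and degrading enzymes, 10 were tested and 1 was called. Maoa, which breaks down serotonin and is also present in absorptive cells, rose from 11.65 to 12.97 (1.33, adjusted p = 5.3e-07). The remaining 8, among them the receptor genes Glp1r, Npy2r, Sctr, Cckar and Ntsr1, did not pass the filter.

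Between the genotypes on WD, limma called 0 genes in each of these 5 lists. Differences lay between -0.13 and 0.35 for the other hormones, -0.39 and 0.46 for the granule list, -0.23 and 0.25 for the transcription factors, -0.08 and 0.29 for the nutrient sensors, and -0.18 and 0.14 for the receptors and degrading enzymes. The list medians ran from -0.02 to 0.05. The highest value of the 5 lists, 0.46, was that of Syp (adjusted p = 0.505 by limma). The pair of probes with the highest signal in each list differed by 0.06 for Sst and 0.35 for Ghrl, by -0.16 for Cplx2 and 0.11 for Snap25, by -0.01 for Foxa1 and -0.18 for Sox4, by 0.29 for Slc5a1 and 0.07 for Cnga3, and by -0.06 for Mme and 0.11 for Dpp4.

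**Figure D3:**
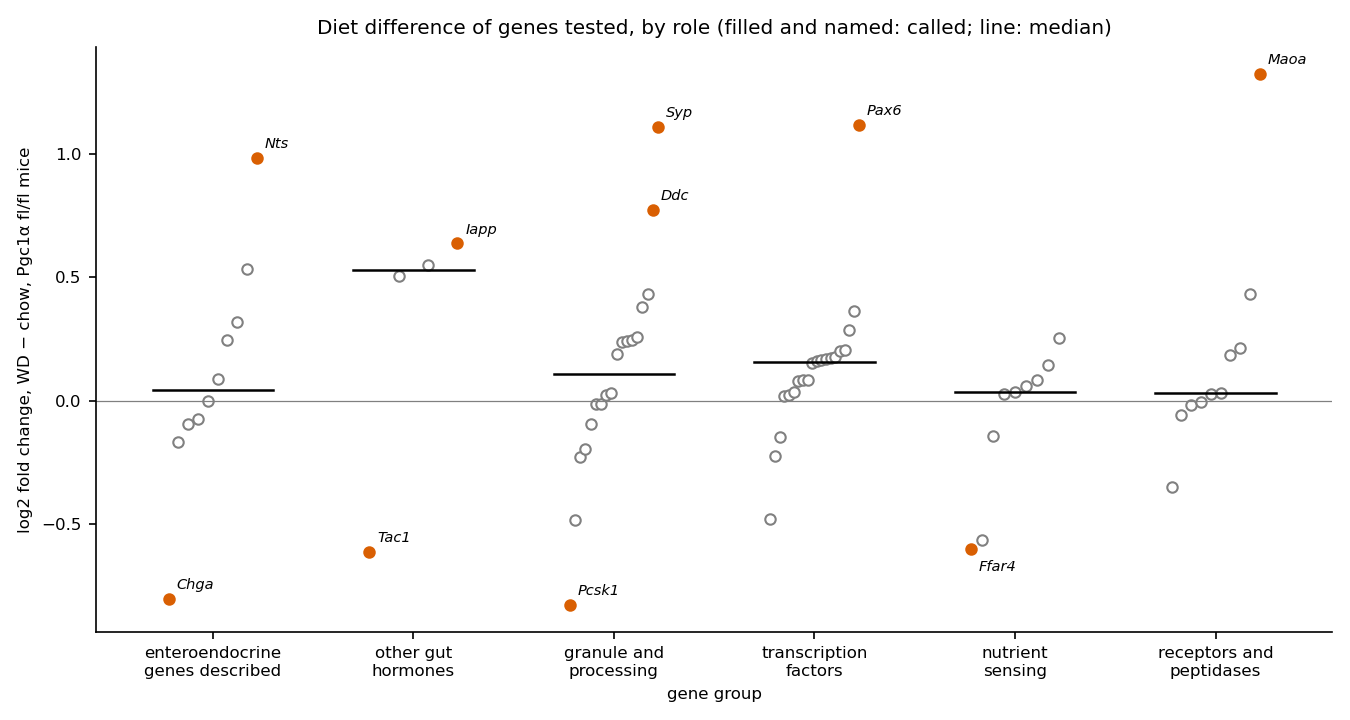
Log2 fold change between WD and chow in Pgc1α fl/fl mice (y axis) for every gene tested, by role (x axis), with called genes filled and named and the median of each group as a line. Called genes go both ways among the 10 described genes, the other hormones and the granule genes, and the group medians lie between 0.03 and 0.53.

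The 10 genes also varied together among mice of one group. For each gene the deviations from the group means were correlated with those of every other gene over the 18 arrays, given as a description since the points share arrays and normalization. All 45 pairs were positive, from 0.03 to 0.93 with a median of 0.60, and 31 were above 0.5. Without the 2 low arrays, 33 pairs were positive, 12 were above 0.5 and the median was 0.31, so part of the common variation lay in those arrays. For these 16 arrays the deviations were still taken from the group means of all 18, which hold the low arrays. The values without the low arrays thus keep some of their influence.

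Some pairs kept a high r when the low arrays were dropped with the group means unchanged. Cck and Chgb had r = 0.93 over 18 arrays and 0.86 over 16, and Gip stood close to both (0.86 with Cck and 0.87 with Chgb, 0.71 and 0.74 over 16). Gcg went with Cck (0.73 and 0.70). Nts went with Neurod1 (0.86 and 0.79), with Pyy (0.81 and 0.62) and with Sct (0.77 and 0.59). Tph1 and Gcg were the pair with the lowest r (0.03), and without the low arrays it was -0.42. The mean r of a gene with the other 9 was highest for Nts (0.72) and Chgb (0.69) and lowest for Chga (0.42) and Gcg (0.44).

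**Figure D4:**
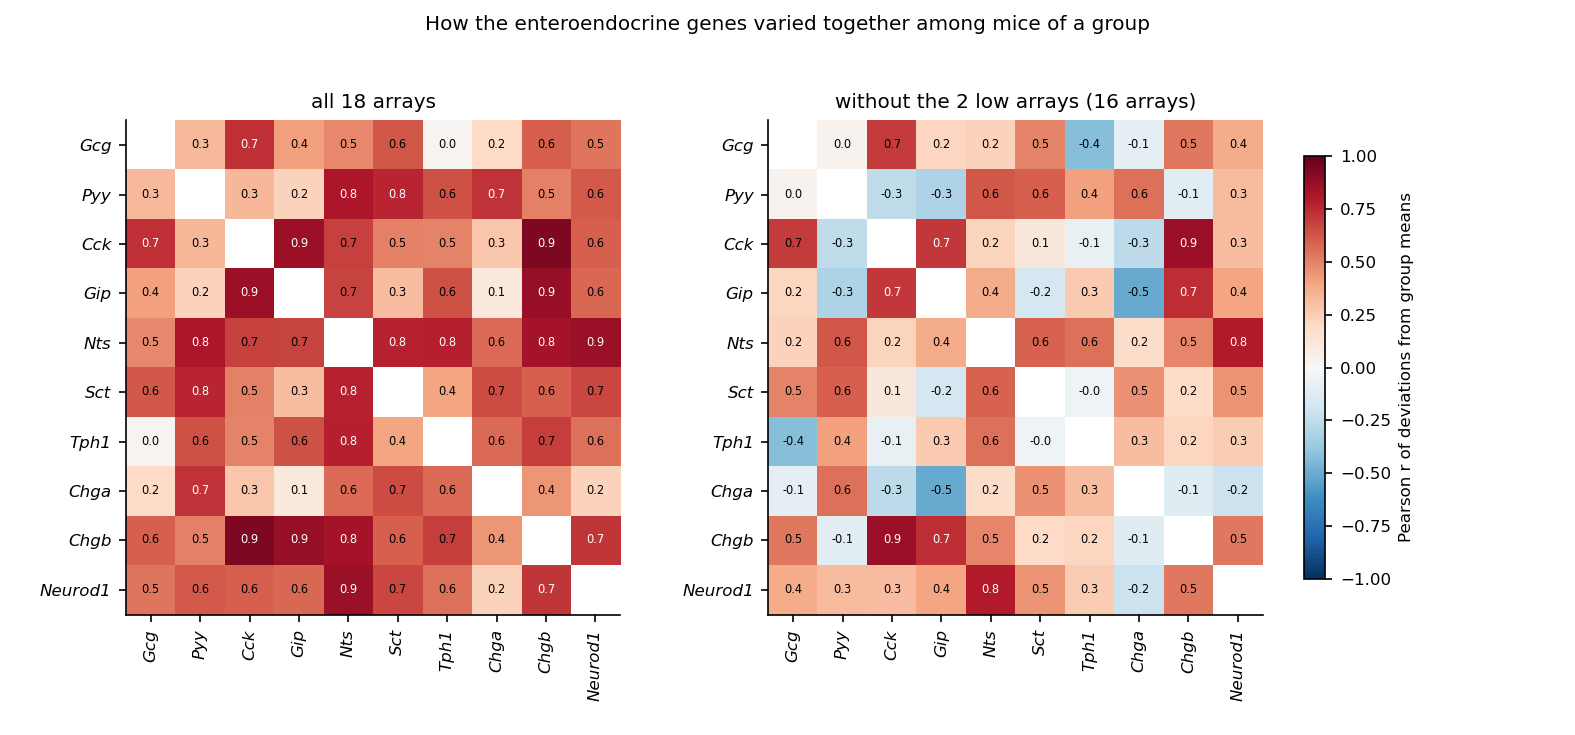
Pearson r (colour and number) between the deviations of each pair of genes from their group means, over all 18 arrays on the left and over the 16 arrays without the 2 low ones on the right. The group means are those of all 18 arrays in both. All 45 pairs are positive on the left and 33 on the right, where Cck and Chgb keep an r of 0.86.

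The genes most like the 10 across mice were found by the r between a gene's deviations and the mean z score of the 10 genes, over 18 arrays. The 8 nearest were Scg3 (0.90), Scg5 (0.89), Scg2 (0.89), Resp18 (0.87), Slc38a11 (0.87), BC017158 (0.87), BC020092 (0.87) and Insm1 (0.85). Without the 2 low arrays, with group means and z scores still those of all 18, these values ran from 0.55 to 0.78. Of the 8, none was called between the diets in Pgc1α fl/fl mice, and Scg3 came nearest (0.43, adjusted p = 0.0337 by limma, below the fold change of 1.5). Among the other lists, the median r was 0.72 for the other gut hormones, 0.56 for goblet markers, 0.49 for Paneth markers and 0.48 for the granule list, against -0.01 over all genes, and it was -0.40 for tuft markers. Of the granule list genes called in a comparison, Pcsk1 had an r of 0.57, Ddc of 0.55, Syp of -0.07 and Cplx2 of -0.32. The part of goblet and Paneth cells in this common variation was not tested.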

How the data were processed

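RNA of ileum cells was labelled with Cy3 and hybridised to 18 Agilent one-colour mouse arrays, 1 per mouse, 6 mice in each of 3 groups. The authors deposited scanner files with spot intensity (Agilent Feature Extraction 10.10.1.1) and a table of log2 values that they had normalized. From the scanner files, the median signal was taken to log2, a probe was kept if at least 5 of 6 arrays of any group measured it well above background (32726 probes), and a smoothed quantile normalization by group (qsmooth, window 0.05, rewritten here) was applied. The deposited log2 table of 33095 probes served as an alternative. The methods also correct for the washing bath and the labelling serial, which the labels do not give, so this was not repeated.

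Groups were compared in one limma 3.58.1 model (R 4.3.3) with Benjamini-Hochberg adjustment over all probes kept, and single genes also by two-sided exact permutation tests. Arrays had 59305 spots that were not controls, of which 56.3% to 62.3% stood well above background. The steps were tested on simulated data, in which noise was drawn separately for each probe. Variation common to several genes was thus not part of that test. Alternatives covered background, normalization, filter, slide and replicate blocks, probe averaging, variance model, fold threshold and leaving out arrays.

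The 10 genes and all lists were chosen with earlier results of these data known. Named besides them were the called genes of each list (at most 5 per list and comparison), otherwise its 2 brightest, the 8 genes most like the 10, and Ppargc1a. Neurog3, Fabp6, the differences of genes not called in lists that held a called gene, and markers that did not pass the filter were chosen after their values were seen.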

Additional observations from a re-analysis of the deposited data

Results flagged for a closer look

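Within each group of 6 mice, the lowest and the highest value of each of the 10 genes were set against the nearest other value as a share of the group's range, and this share was held against Dixon's critical value at 95%. Of 30 groups tested, 6 values passed, and chance alone marks about 1 in 20 groups. The groups of different genes hold the same mice, so 1 low array can mark several genes, and this rate is only a rough guide. In Pgc1α fl/fl WD mouse 6, Chgb was lowest (10.11 against 11.15 in the next mouse, share 0.637), as were Nts (10.01 against 11.45, share 0.67) and Pyy (8.99 against 9.92, share 0.683). In Pgc1α fl/fl chow mouse 4, Chgb was lowest (10.30 against 11.39, share 0.839), as was Tph1 (5.83 against 6.44, share 0.636). In Pgc1α fl/fl chow mouse 2, Pyy was highest (10.02 against 9.47, share 0.667). Thus 5 of the 6 values belong to the 2 low arrays. The cause was not tested.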

How the results depend on the processing

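Chga and Nts were called between WD and chow in Pgc1α fl/fl mice under every setting run, with log2 differences of -0.86 to -0.71 and 0.83 to 1.29. In all, 2 of the 10 genes were called there (2 to 3 when single arrays were left out, and 3 without both low arrays, when Pyy was called at 0.70), 0 between the genotypes, and 3 in the third comparison (4 with no fold threshold). Left-out arrays moved Pyy between 0.45 and 0.74. Leaving out both low arrays and taking slide as a random block were chosen after seeing the data. Over all genes, calls numbered 1815, 29 and 2542 in the 3 comparisons, and 5294, 49 and 7927 with no fold threshold. Leaving out single arrays gave 1624 to 2012, 19 to 38 and 2295 to 2825. Between the genotypes, 13 genes were called higher and 16 lower, against 9 and 20 with background-subtracted signals.

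Small differences changed sign. Gip between the diets was 0.02 with background-subtracted signals (0.0214), normexp (0.0233), quantile normalization (0.0193) and the deposited log2 values (0.0188). Between the genotypes, Cck was 0.0028 with background-subtracted signals and with the strict filter, Neurod1 was 0.0292 with background-subtracted signals, and without both low arrays Pyy was -0.013, Sct -0.004, Nts -0.0666 and Tph1 -0.046. With single arrays left out, diet differences of Gip ran from -0.2707 to 0.1714, Neurod1 from -0.0366 to 0.2217, Cck from -0.2219 to 0.0441 and Chgb from -0.2694 to 0.1508. Genotype differences ran from -0.206 to 0.0513 for Gcg, -0.0133 to 0.2722 for Pyy, -0.1329 to 0.1227 for Cck, -0.0043 to 0.1365 for Sct, -0.0668 to 0.3722 for Nts, -0.2984 to 0.0404 for Chgb, -0.0461 to 0.1938 for Tph1 and -0.1442 to 0.0993 for Neurod1. Neurod1 ran from -0.0199 to 0.1638 in the third comparison. The causes were not tested.

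Nothing in the labels says that replicate numbers pair the mice. Same-numbered mice had correlations of deviations from -0.13 to 0.28 between the Pgc1α fl/fl groups (4 of 6 pairs over 0.1, 4 of 6 mice matching their own number best), -0.19 to 0.33 between the genotypes on WD (3 and 3 of 6) and -0.22 to 0.35 in the third comparison (2 and 1 of 6). Since not every pair was over 0.1, the numbers were not taken as pairs. With the replicate block, 2, 0 and 3 of the 10 genes were called, with 1828, 25 and 2576 genes in all.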
